A study of Mus musculus with 4 samples.

Results

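The genes described here encode 8 families of chromatin regulators. These are the *Kmt* and *Setd* histone methyltransferases, the *Kdm* demethylases, and the *Chd* and *Smarc* components of ATP-dependent remodelers. The others are the *Arid* proteins, some of them remodeler subunits, the *Brd* bromodomain proteins and the *Hdac* deacetylases. Members were the autosomal protein-coding genes whose symbols begin with one of these names, and 82 of the 24454 genes in the count table fulfilled the rule. Of these, 80 passed the filter on low counts and were tested. *Arid3c*, with 0, 2, 1 and 0 counts in libraries WH7, WH8, WH9 and WH10, and *Kdm4d*, with 1, 2, 0 and 4 counts, were not.

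RNA was sequenced from mouse hearts on postnatal day 7 (P7), with 2 libraries from Ctrl mice (WH7 and WH8) and 2 from *miR-128* overexpressing transgenic mice, designated miR-128OE (WH9 and WH10). The miR-128OE mice carried α-MHC-tTA, which places a tetracycline-controlled transactivator under a cardiomyocyte promoter, together with the miR-128TetRE responder knocked into the Rosa26 locus. Ctrl mice carried the miR-128TetRE responder without the transactivator, and the responder is induced when doxycycline is withdrawn. Heart tissue was used, so RNA of cardiomyocytes was measured together with that of other cells. A smaller number of cells of a type cannot be told apart from less RNA per cell. The labels do not say whether the 2 libraries of a group came from separate animals, so p-values measure only the spread between these libraries, which may be technical.

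Histone methyltransferases and demethylases write and erase methyl groups on lysines of histone tails, and deacetylases remove acetyl groups that bromodomain proteins bind. Chd and Smarc ATPases use ATP to slide or evict nucleosomes, and some Arid proteins are DNA-binding subunits of such complexes. In the heart, the BAF complex built around Smarca4 is needed for cardiac development, and class IIa deacetylases restrain the MEF2 transcription factors.

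Library totals were 12385863 (WH7), 8096870 (WH8), 12440553 (WH9) and 14359838 (WH10) counts. The *Mir128-2* locus had 0 counts in WH7 and in WH8, 2 in WH9 and 10 in WH10, while *Mir128-1* had 0 in all 4 libraries. The libraries also differed by sex markers. Counts of *Xist*, the RNA that coats the inactive X, were 14543 and 11339 in Ctrl libraries against 94 and 132 in miR-128OE libraries, and the Y-linked gene *Ddx3y* had 13 and 7 against 1442 and 1768. Sex and *miR-128* overexpression therefore coincide here and cannot be told apart in any of the following values. The 8 cardiomyocyte markers were all detected and their summed level was 44594 and 47843 CPM (counts scaled by the library total) in Ctrl libraries against 53636 and 53898 in miR-128OE libraries, with 4 genes higher and 1 lower. For 8 proliferation markers the sum was 515 and 665 CPM in Ctrl libraries against 338 and 342 in miR-128OE libraries, with 4 lower and none higher. Endothelial markers summed to 1948 and 1940 CPM against 1872 and 1831 (2 of 8 higher, 2 lower), and smooth muscle and pericyte markers to 2034 and 1845 against 2203 and 2588 (2 of 7 higher, 1 lower). The sums of fibroblast (6650 to 10342 CPM, 1 of 8 higher) and macrophage markers (103 to 138 CPM, 0 of 8 called) overlapped between the groups. Epicardial markers summed to 138 and 82.9 CPM in Ctrl libraries against 81.6 and 82.0 in miR-128OE libraries, with 0 of 4 called. Erythroid markers, 3 of 5 at 0, summed to 40.6 and 28.0 CPM against 69.3 and 63.6, with 1 called higher. The part of these markers in the values of the chromatin regulators was not tested.

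Many chromatin regulators were lower in miR-128OE hearts, and few were higher. With the quasi-likelihood test of edgeR (Benjamini-Hochberg adjustment over 14266 genes, threshold 0.05), 36 of the 80 tested members (45.0%) were lower, while 15.0% of all genes tested were lower. Only 4 members (5%), *Setd7*, *Arid5a*, *Kdm6b* and *Setd5*, were higher, against 16.5% of all genes, and 40 did not pass the test. The median log2 fold change of the members was −0.27, and that of all genes tested was −0.01. Both miR-128OE libraries lay below both Ctrl libraries for 52 members (34.4% of all genes) and above them for 14 (33.7% of all genes).

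Fewer genes were called when a miR-128OE library was left out, among the members and among all genes. In such a fit the spread comes from the 2 Ctrl libraries alone. The members' median log2 fold change was then −0.23 (without WH9) and −0.29 (without WH10). Without WH9 the test called 12 members lower and 1 higher, beside 4.56% and 6.13% of all genes, and without WH10 it called 16 lower and 2 higher, beside 6.97% and 8.65%. All 36 lower members kept their sign when any 1 library was left out, and 12 kept their call in each of the 4 cases: *Arid4a*, *Arid5b*, *Brd3*, *Brd8*, *Brd9*, *Chd2*, *Chd7*, *Chd8*, *Hdac1*, *Kmt2a*, *Kmt2c* and *Kmt2e*. Among the 4 higher members, only *Setd7* kept its call in each case. Leaving out a Ctrl library gave 45 lower and 3 higher members without WH7 (16.4% and 18.2% of all genes) and 33 lower and 7 higher without WH8 (14.2% and 17.0%). DESeq2 called 27 members lower and 3 higher (9.88% and 12.0% of all genes), all of them among the 36 and the 4. The calls that DESeq2 did not make were *Arid1b*, *Arid4b*, *Brd8dc*, *Chd1l*, *Hdac11*, *Kmt2b*, *Kmt5c*, *Setd4* and *Smarcc2* among the lower members and *Setd5* among the higher ones, with adjusted p between 0.0569 and 0.116. With scaling by total counts, 45 members were lower and 3 higher (20.7% and 11.3% of all genes), and the medians were −0.37 for the members and −0.11 for all genes.

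**Figure D1:**
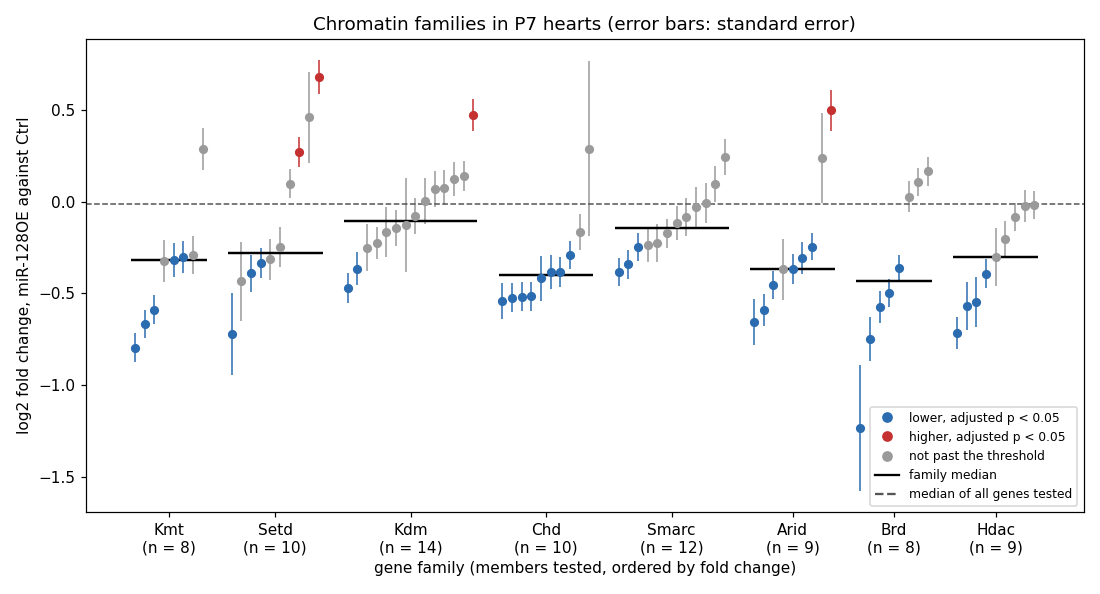
Log2 fold change (y axis, miR-128OE against Ctrl) of each tested member with its standard error, by family (x axis), where blue points were lower and red points higher by the edgeR test, grey points did not pass it, black lines are family medians and the dashed line is the median of all genes tested. All 8 family medians are below 0 here, from −0.43 (*Brd*) to −0.10 (*Kdm*), which was 0.02 without WH8.

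Mature *miR-128* is shown first, as its seed is searched for in the 3′ untranslated regions (3′UTRs) of the members. The RefSeq sequence (GRCm38.p6) is the same from both loci, chr1:128202404-128202424 on the plus strand and chr9:112118644-112118664 on the minus strand, with the seed (bases 2 to 8) in capitals.
mmu-miR-128-3p: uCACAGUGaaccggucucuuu

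Matches to the seed were the letters CACTGTG (pairing with bases 2 to 8) or ACTGTGA (pairing with bases 2 to 7, followed by an A) on the transcript strand, and a site with both was counted once. The called members with the largest fall and the largest rise in their families of methyltransferases, *Kmt2a* and *Setd7*, both carry several matches, which is why their sites are printed. *Kmt2a* had 4 in a 3′UTR of 4547 nucleotides on the minus strand of chromosome 9 (GRCm38). The printed windows of 30 bases are at chr9:44805710-44805739, chr9:44805693-44805722, chr9:44805529-44805558 and chr9:44805336-44805365, with the match of each site in capitals. Windows 1 and 2 overlap, so the match of site 1 appears again in lower case in site 2.
Kmt2a site 1: ctggaacattgtcactgtttcCACTGTGgg
Kmt2a site 2: tttccactgtgggaagcccagCACTGTGgc
Kmt2a site 3: tgtctggtttccttcttattgCACTGTGtg
Kmt2a site 4: tgccctgctaggccatgctgtACTGTGAgc

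*Setd7* had 3 in a 3′UTR of 5988 nucleotides on the minus strand of chromosome 3, with windows at chr3:51518619-51518648, chr3:51518366-51518395 and chr3:51515932-51515961.
Setd7 site 1: tggactctgtgcctttccctgACTGTGAcc
Setd7 site 2: ctgttaaagaggccagaacctCACTGTGga
Setd7 site 3: aaacaataatctgacaaatttCACTGTGta

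A match is a run of letters and was not tested as a binding site. The number of matches was similar in *Kmt2a*, which was lower, and *Setd7*, which was higher. Across the members, 27 of the 80 tested (33.8%) had at least 1 match, beside 31.0% of the 13457 tested genes with an annotated 3′UTR. Matches were present in 10 of the 36 lower members (27.8%), in 14 of the 40 that did not pass the test (35.0%) and in 3 of the 4 higher members: *Arid5a* with 4, *Setd7* with 3 and *Setd5* with 1. *Kdm6b*, the other higher member, had none. The median log2 fold change was −0.17 for members with a match and −0.31 for members without one. Over all tested genes with an annotated 3′UTR it was −0.015 with a match and 0.001 without one. Among the members with 4 matches, *Kmt2a*, *Chd2* and *Arid1b* were lower, *Arid5a* was higher and *Kdm7a* did not pass the test (log2 fold change 0.14, adjusted p = 0.231).

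Among the *Kmt* genes, 5 of 8 were lower and none was higher, beside 15.0% and 16.5% of all genes. The median log2 fold change was −0.32. The 3 largest falls were in *Kmt2a*, *Kmt2e* and *Kmt2c*. *Kmt2a* (MLL), which methylates lysine 4 of histone H3 at promoters of developmental genes, had 1674 and 1641 normalized counts in WH7 and WH8 (Ctrl) against 942 and 967 in WH9 and WH10 (miR-128OE; counts scaled to the mean effective library size, in this order below), a log2 fold change of −0.80 (SE 0.08, adjusted p = 0.000163). *Kmt2e*, a relative that has a SET domain and binds methylated histone H3, had 3176 and 3248 against 2060 and 1986. Its log2 fold change was −0.67 (SE 0.08, adjusted p = 0.00035). *Kmt2c*, which acts with *Kmt2d* at enhancers, had 1171 and 1180 against 770 and 791, a log2 fold change of −0.59 (SE 0.08, adjusted p = 0.000774). In all 3 genes the libraries of a group lay within a narrow range and the groups were well separated, and these 3 calls held whichever library was left out.

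The other H3 lysine 4 methyltransferases of the Kmt2 and Setd1 type had smaller differences. *Kmt2b* had 1128 and 1278 against 975 and 974 (log2 fold change −0.30, adjusted p = 0.0285), but with an offset for GC content and transcript length its adjusted p was 0.0598. *Kmt2d*, the gene mutated in most patients with Kabuki syndrome, had 1618 and 2047 in the Ctrl libraries, a wider spread than in *Kmt2c*, against 1380 and 1543, and did not pass the test (log2 fold change −0.32, SE 0.11, adjusted p = 0.0578). *Setd1a* and *Setd1b*, which encode the catalytic subunits of the complexes that place most H3 lysine 4 trimethylation, had log2 fold changes of −0.31 (adjusted p = 0.057) and −0.25 (adjusted p = 0.106). Both miR-128OE libraries were below both Ctrl libraries in all 6 genes of this group, as they were in 34.4% of all genes. *Setd7*, which monomethylates the same lysine and is described below, is not in this group and was higher. The edgeR test called 3 of the 6 lower, beside 15.0% of all genes. DESeq2 and the offset for GC content and length each called 2.

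The methyltransferases of H4 lysine 20 did not move together. *Kmt5c*, which places the di- and trimethyl marks of heterochromatin, had 810 and 878 normalized counts in Ctrl libraries against 638 and 713 in miR-128OE libraries (log2 fold change −0.32, adjusted p = 0.0294). *Kmt5b*, its paralog, had 907 and 1105 against 817 and 820 (log2 fold change −0.29, adjusted p = 0.0564). *Kmt5a*, the monomethyltransferase active in dividing cells, had 1254 and 1638 against 1777 and 1740, so its 2 Ctrl libraries were farther apart than the nearer Ctrl and miR-128OE libraries, and it did not pass the test (log2 fold change 0.29, adjusted p = 0.0862). The number of lower *Kmt* genes was 3 without WH8, without WH9 or without WH10.

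Of the 10 *Setd* genes, 2 (20%) were higher and 3 (30%) lower, beside 16.5% and 15.0% of all genes. Their median log2 fold change was −0.28. *Setd7*, which monomethylates H3 lysine 4 and several non-histone proteins, had 606 and 534 normalized counts in the Ctrl libraries against 918 and 913 in the miR-128OE libraries, and its log2 fold change of 0.68 was the largest rise among the members (SE 0.09, adjusted p = 0.000815). *Setd5*, a chromatin regulator mutated in intellectual disability, had 1565 and 1717 against 1921 and 2028 (log2 fold change 0.27, SE 0.08, adjusted p = 0.0342). The *Setd5* call was lost by DESeq2 (adjusted p = 0.0642) and with scaling by total counts (log2 fold change 0.17, adjusted p = 0.145).

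On the lower side of the family, *Setd4* had 97.8 and 127 normalized counts against 61.4 and 73.2 (log2 fold change −0.72, SE 0.22, adjusted p = 0.0346), the largest standard error among the called members of this family. *Setdb1*, which trimethylates H3 lysine 9 and silences retroelements, had 642 and 753 against 537 and 523 (log2 fold change −0.39, SE 0.10, adjusted p = 0.0178). *Setd2*, the enzyme for trimethylation of H3 lysine 36 in transcribed genes, had 931 and 926 against 728 and 745 (log2 fold change −0.33, SE 0.08, adjusted p = 0.0125). None of these 3 was called lower without WH9 or without WH10, when 0 *Setd* genes were called lower, and *Setd7* was the gene called higher in both cases. *Setd3*, the actin histidine methyltransferase, had 1192 and 1261 against 1312 and 1310 and did not pass the test (log2 fold change 0.10, adjusted p = 0.377).

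Most *Kdm* genes did not pass the test, with 2 of the 14 tested lower, 1 higher and a median log2 fold change of −0.10. The share of lower genes (14.3%) was near that of all genes (15.0%), and 7.14% were higher beside 16.5%. *Kdm5a*, an H3 lysine 4 demethylase that binds the retinoblastoma protein, had 1620 and 1688 normalized counts in Ctrl libraries against 1140 and 1244 in miR-128OE libraries (log2 fold change −0.47, SE 0.08, adjusted p = 0.00273). Its paralog *Kdm5b* had 663 and 769 against 673 and 676, with overlapping groups (log2 fold change −0.08, SE 0.10, adjusted p = 0.563). *Kdm3b*, an H3 lysine 9 demethylase, had 837 and 941 against 688 and 689 (log2 fold change −0.37, SE 0.09, adjusted p = 0.0138).

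The only *Kdm* gene called higher was *Kdm6b* (Jmjd3), which removes the repressive methyl marks of H3 lysine 27. It had 1042 and 977 normalized counts in Ctrl libraries against 1466 and 1339 in miR-128OE libraries (log2 fold change 0.47, SE 0.09, adjusted p = 0.00336). *Kdm1a* (Lsd1), an amine oxidase of the CoREST complex that demethylates H3 lysine 4, had 910 and 1057 against 1062 and 1074 (log2 fold change 0.12, adjusted p = 0.341). The *Kdm4* genes, which act on H3 lysines 9 and 36, had log2 fold changes between 0.00 and 0.08 in the 3 that were tested, with adjusted p between 0.584 and 0.99. *Kdm2a* (log2 fold change −0.23, adjusted p = 0.0763) and *Kdm2b* (−0.25, adjusted p = 0.169), whose CXXC domains bind CpG islands, did not pass the test either. Without WH9 no *Kdm* gene was called in either direction, without WH10 1 was called lower, without WH7 4 were, and without WH8 the family's median was 0.02.

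In the *Chd* family 8 of 10 genes were lower, beside 15.0% of all genes, and the median log2 fold change was −0.40. All 4 genes of subfamily III, *Chd6*, *Chd7*, *Chd8* and *Chd9*, were lower, with a median of −0.52. *Chd7*, mutated in CHARGE syndrome with its heart malformations, had 1350 and 1382 normalized counts in Ctrl libraries against 944 and 966 in miR-128OE libraries (log2 fold change −0.52, SE 0.08, adjusted p = 0.00139). *Chd8*, a regulator of Wnt target genes, had 1905 and 2071 against 1383 and 1390 (log2 fold change −0.52, adjusted p = 0.00146). *Chd9* had 653 and 691 against 435 and 487 (log2 fold change −0.54, SE 0.10, adjusted p = 0.00344). *Chd6* had 1772 and 2044 against 1407 and 1512 (log2 fold change −0.38, adjusted p = 0.0119).

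*Chd4*, the ATPase of the NuRD complex, had the highest count of all members, with 6465 and 6890 normalized counts in Ctrl libraries against 5124 and 5111 in miR-128OE libraries (log2 fold change −0.38, SE 0.08, adjusted p = 0.00787). *Chd3*, the alternative NuRD ATPase, had 2187 and 2130 against 1720 and 1811 (log2 fold change −0.29, adjusted p = 0.0189). *Chd2*, a subfamily I remodeler that associates with transcribed genes, had 1863 and 2000 against 1339 and 1344 (log2 fold change −0.52, adjusted p = 0.00127). In each of these genes the groups were separated by more than the range within a group.

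The remaining *Chd* genes were *Chd1l*, *Chd1* and *Chd5*. *Chd1l*, a remodeler recruited by poly(ADP-ribose) at DNA damage, had 293 and 309 normalized counts against 237 and 214 (log2 fold change −0.42, adjusted p = 0.0298). *Chd1*, the paralog of *Chd2*, had 665 and 773 against 643 and 632 and did not pass the test (log2 fold change −0.17, adjusted p = 0.222). *Chd5*, expressed mainly in neurons, had 14, 11, 11 and 27 raw counts in the 4 libraries, and no difference was detectable at this depth (adjusted p = 0.676). Without WH9 3 *Chd* genes were called lower (*Chd2*, *Chd7* and *Chd8*), and without WH10 4 were.

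Of the 14 BAF and PBAF remodeler subunits among the members, 7 were lower and none higher, beside 15.0% and 16.5% of all genes. Their median log2 fold change was −0.24. The offset for GC content and length called 6 lower and DESeq2 5, against 7 by edgeR. Of these 7, *Brd9* alone kept its call whichever library was left out. *Smarca4* (Brg1), the ATPase, had 2257 and 2326 normalized counts in Ctrl libraries against 1729 and 1778 in miR-128OE libraries (log2 fold change −0.39, SE 0.08, adjusted p = 0.005). The alternative ATPase *Smarca2* (Brm) had 1943 and 1775 against 1636 and 1665 and did not pass the test (log2 fold change −0.17, SE 0.08, adjusted p = 0.13). In both genes the miR-128OE libraries lay below the Ctrl libraries, as they did in 34.4% of all genes.

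Among the core subunits, *Smarce1*, an HMG-box protein, had 2230 and 2260 normalized counts against 1720 and 1821 (log2 fold change −0.34, SE 0.08, adjusted p = 0.00933). *Smarcc2*, a scaffold subunit, had 2139 and 2215 against 1833 and 1831 (log2 fold change −0.25, adjusted p = 0.0326; 0.051 with the offset for GC content and length). Its paralog *Smarcc1* had 1096 and 1201 against 1027 and 918 (log2 fold change −0.24, adjusted p = 0.076). *Smarcd3*, the heart-enriched variant of the Smarcd subunit, had 1474 and 1245 against 1096 and 1236, so that 1 Ctrl library was almost level with 1 miR-128OE library, and it did not pass the test (log2 fold change −0.22, SE 0.10, adjusted p = 0.126). With the offset for GC content and length it did (log2 fold change −0.33, adjusted p = 0.0269). *Smarcd1*, the broadly expressed variant, had 605 and 701 against 780 and 761 (log2 fold change 0.24, adjusted p = 0.0823).

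*Smarcb1*, the core subunit lost in rhabdoid tumours, had 825 and 663 normalized counts against 720 and 747 (log2 fold change −0.03, adjusted p = 0.871). *Smarca5*, the ISWI ATPase, had 1064 and 895 against 1068 and 1032 (log2 fold change 0.10, adjusted p = 0.488), and its reads could be shared with the pseudogene *Smarca5-ps*, which had 4 to 8 counts. Over the 12 *Smarc* genes, 3 (25%) were lower and none higher, beside 15.0% and 16.5% of all genes. Their median log2 fold change was −0.15. No *Smarc* gene was called lower without WH9 or without WH10, while 5 were without WH8, and 6 were with scaling by total counts.

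Of the 9 *Arid* genes tested, 6 were lower and 1 higher, beside 15.0% and 16.5% of all genes. Their median log2 fold change was −0.37. All 3 *Arid* genes of the BAF and PBAF complexes were called lower with all 4 libraries, but none of these calls held in every setting. *Arid1a* of the BAF complex had 2007 and 2235 normalized counts in Ctrl libraries against 1627 and 1659 in miR-128OE libraries (log2 fold change −0.37, SE 0.08, adjusted p = 0.00949). Its paralog *Arid1b* had 864 and 828 against 712 and 659 (log2 fold change −0.31, SE 0.09, adjusted p = 0.0251), and was not called with the offset for GC content and length (adjusted p = 0.0782) or by DESeq2 (0.0933). *Arid2* of the PBAF complex had 1312 and 1321 against 966 and 955 (log2 fold change −0.46, adjusted p = 0.0025).

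*Arid4a* and *Arid4b* encode retinoblastoma-binding subunits of the SIN3-HDAC corepressor, and both were lower in the edgeR test. *Arid4a* had 1330 and 1476 normalized counts against 895 and 963 (log2 fold change −0.59, SE 0.09, adjusted p = 0.00128). *Arid4b* had 2041 and 2015 against 1706 and 1717 (log2 fold change −0.25, adjusted p = 0.0328, by DESeq2 0.0876).

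The pair *Arid5a* and *Arid5b* differed in direction. *Arid5b*, a partner of a histone demethylase, had 283 and 278 normalized counts in Ctrl libraries against 181 and 175 in miR-128OE libraries (log2 fold change −0.66, SE 0.13, adjusted p = 0.00434). *Arid5a*, which also binds and stabilizes inflammatory mRNAs, had 257 and 271 against 378 and 367 (log2 fold change 0.50, SE 0.11, adjusted p = 0.00933). Without WH9 2 *Arid* genes were called lower and none higher, and without WH10 3 and none.

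In the *Brd* family, 5 of 8 genes were lower and none higher, beside 15.0% and 16.5% of all genes. The median log2 fold change was −0.43. *Brd8*, a subunit of the TIP60 acetyltransferase complex, had 896 and 1159 normalized counts in Ctrl libraries against 621 and 597 in miR-128OE libraries (log2 fold change −0.75, SE 0.12, adjusted p = 0.00177). The annotated gene *Brd8dc* had 37.5 and 45.2 against 19.8 and 15.1 (log2 fold change −1.23, SE 0.34, adjusted p = 0.0226), and DESeq2 did not call it (adjusted p = 0.0845). *Brd9*, of the non-canonical BAF complex, had 1574 and 1678 against 1025 and 1156 (log2 fold change −0.57, adjusted p = 0.00151), whereas *Brd7*, of PBAF, had 1085 and 1084 against 1220 and 1211 and did not pass the test (log2 fold change 0.16, adjusted p = 0.138).

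*Brd3* and *Brd2* encode BET proteins, which bind acetylated histones. *Brd3* had 2267 and 2237 normalized counts in Ctrl libraries against 1620 and 1574 in miR-128OE libraries (log2 fold change −0.50, adjusted p = 0.00138). *Brd2* had 2057 and 2041 against 2172 and 2242 and did not pass the test (log2 fold change 0.11, adjusted p = 0.307). Without WH9 or WH10, 3 *Brd* genes were called lower in each case.

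Of the 9 *Hdac* genes, 4 were lower and none higher, beside 15.0% and 16.5% of all genes. Their median log2 fold change was −0.30. Within class I, *Hdac1* and *Hdac2* encode the paired catalytic subunits of the SIN3, NuRD and CoREST complexes, and only *Hdac1* was called. *Hdac1* had 954 and 889 normalized counts in Ctrl libraries against 575 and 548 in miR-128OE libraries (log2 fold change −0.72, SE 0.09, adjusted p = 0.000482). *Hdac2* had 1381 and 1340 against 1354 and 1330, with overlapping groups (log2 fold change −0.02, SE 0.08, adjusted p = 0.866). *Hdac3*, the catalytic subunit of the NCoR and SMRT corepressors, had 829 and 786 against 758 and 828 (log2 fold change −0.03, SE 0.09, adjusted p = 0.851).

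Among the 4 class IIa genes, which bind MEF2 in cardiomyocytes, only *Hdac5* passed the test. Both miR-128OE libraries lay below both Ctrl libraries in each of the 4, as they did in 34.4% of all genes. *Hdac5* had 1727 and 1816 normalized counts against 1319 and 1376 (log2 fold change −0.39, SE 0.08, adjusted p = 0.00519). *Hdac4* had 502 and 530 against 457 and 437 (log2 fold change −0.20, adjusted p = 0.14). *Hdac9* had 264 and 360 against 240 and 261, with WH7 and WH10 almost level (log2 fold change −0.30, SE 0.16, adjusted p = 0.172).

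*Hdac7*, expressed in endothelial cells, did not pass the test (log2 fold change −0.08, adjusted p = 0.432). *Hdac10*, a polyamine deacetylase, had 377 and 370 against 226 and 277 (log2 fold change −0.57, SE 0.13, adjusted p = 0.0097). *Hdac11*, the class IV enzyme, had 242 and 225 against 160 and 160 (log2 fold change −0.55, SE 0.14, adjusted p = 0.0137). Leaving out WH9 left *Hdac1* as the 1 *Hdac* gene called lower, and leaving out WH10 left 2.

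**Figure D2:**
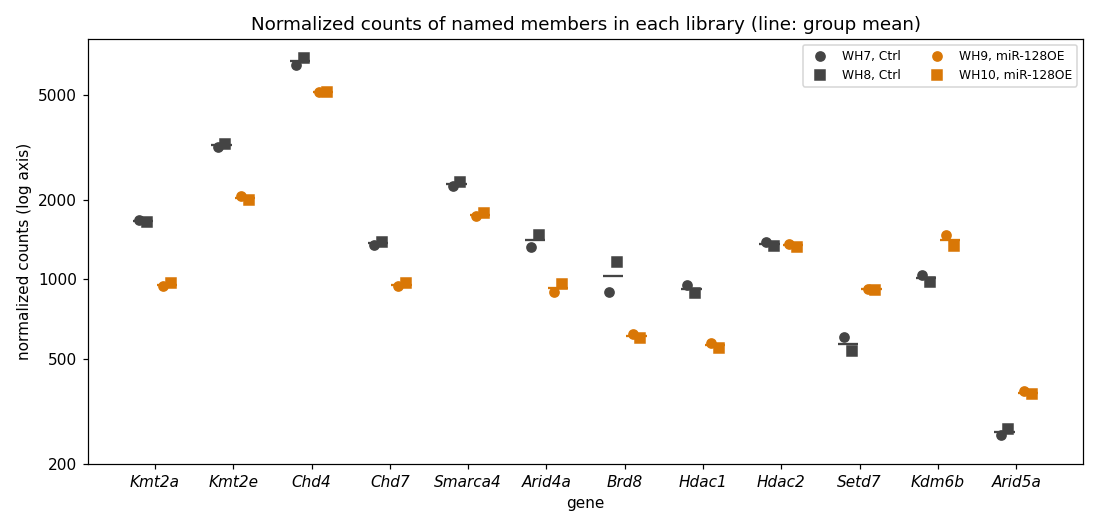
Normalized counts (y axis, log scale) of named members in each of the 4 libraries, Ctrl (WH7, WH8) and miR-128OE (WH9, WH10), with lines at the group means. *Kmt2a*, *Kmt2e* and *Hdac1* lie lower in both miR-128OE libraries, *Setd7*, *Kdm6b* and *Arid5a* lie higher, and *Hdac2* overlaps between the groups.

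The balance between related genes within a library differed between the groups for some pairs. Levels were divided by transcript length for this purpose, and each ratio depends on the transcript taken as the gene's length. The *Hdac1* to *Hdac2* ratio was 1.10 and 1.06 in the Ctrl libraries WH7 and WH8 against 0.677 and 0.658 in the miR-128OE libraries WH9 and WH10. The *Brd3* to *Brd2* ratio was 0.947 and 0.942 against 0.641 and 0.603. For *Arid5a* to *Arid5b* it was 1.25 and 1.34 against 2.88 and 2.89, so *Arid5a* exceeded its paralog in all 4 libraries.

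The *Kdm5a* to *Kdm5b* ratio was 1.95 and 1.75 against 1.35 and 1.46, and the *Kmt2a* to *Kmt2b* ratio was 0.763 and 0.660 against 0.496 and 0.511. For the alternative BAF ATPases, *Smarca4* to *Smarca2* was 1.08 and 1.22 against 0.981 and 0.992. The heart-enriched *Smarcd3* to the broadly expressed *Smarcd1* was 4.64 and 3.39 against 2.68 and 3.09. In both of these *Smarc* pairs the Ctrl ratios were farther apart than the nearest ratios of the groups. Neither *Smarcd3* nor *Smarcd1* passed the test. How often unrelated gene pairs are separated in this way was not computed. Other pairs overlapped between the groups. *Chd4* to *Chd3* was 3.20 and 3.51 against 3.23 and 3.06, and *Arid1a* to *Arid1b* was 3.21 and 3.73 against 3.16 and 3.48. With 2 libraries per group an exact two-sided permutation test cannot give a p under 0.333, so none was run on the ratios.

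**Figure D3:**
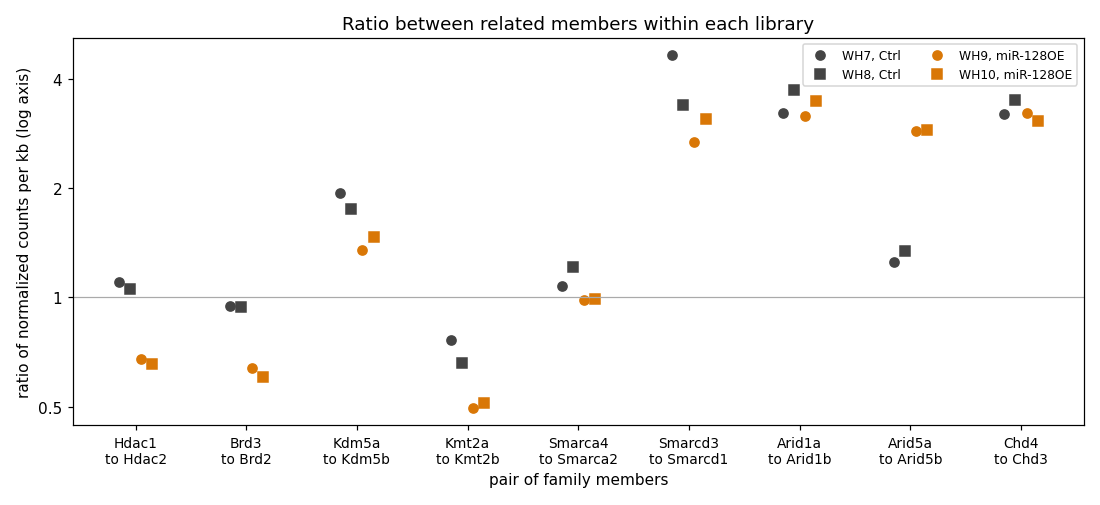
Ratio of levels per kilobase of related genes (y axis, log scale) in each library. The *Hdac1* to *Hdac2* and *Brd3* to *Brd2* ratios are lower in both miR-128OE libraries, the *Arid5a* to *Arid5b* ratio is higher, and the *Chd4* to *Chd3* and *Arid1a* to *Arid1b* ratios overlap.

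Many chromatin regulators have long transcripts, and fold changes moved with length across all genes. Of all genes with a transcript up to 2000 nucleotides, 7.79% were lower and 24.6% higher, whereas of genes over 8000 nucleotides 27.9% were lower and 8.73% higher. Within each length class the members had a lower median than all genes tested. The 20 members over 8000 nucleotides, among them *Kmt2a* with 16470, had a median log2 fold change of −0.35 against −0.14 for all genes, and 13 of them (65.0%) were lower. The 37 members over 4000 and up to 8000 nucleotides had −0.25 against −0.07, with 14 (37.8%) lower beside 18.6% of all genes. The 19 members over 2000 and up to 4000 nucleotides had −0.12 against −0.01, with 8 (42.1%) lower beside 14.3%. Only 4 members were shorter.

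With a per-library offset for GC content and length, 34 members were lower and 4 higher, beside 15.2% and 14.6% of all genes. Of the 36 lower members, 33 kept their call, and *Arid1b*, *Kmt2b* and *Smarcc2* did not. The median of the members was then −0.23, *Kmt2a* was at −0.68 on the log2 scale (adjusted p = 0.000552) and *Hdac1*, whose transcript has 2038 nucleotides, −0.79 (adjusted p = 0.000428). All 4 higher members kept their call.

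**Figure D4:**
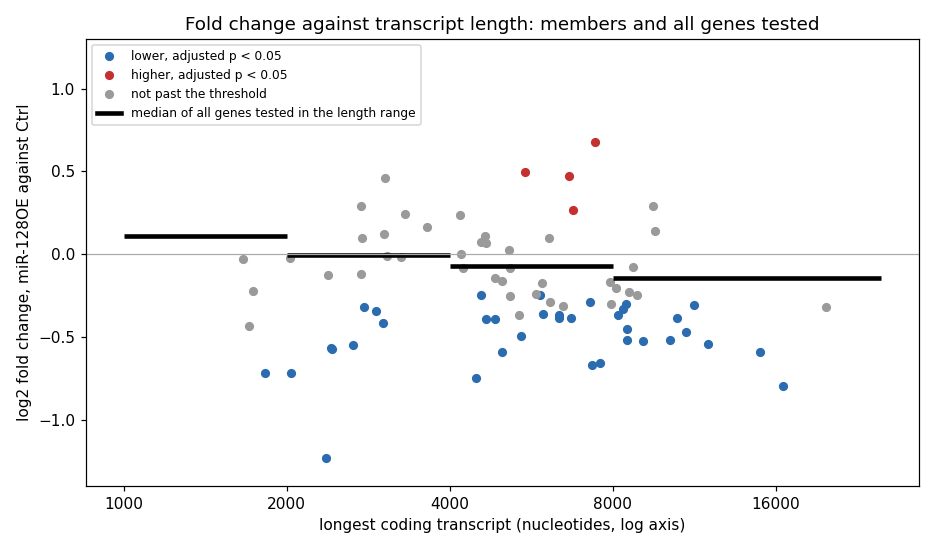
Log2 fold change of the tested members (y axis) against length of the longest coding transcript in nucleotides (x axis, log scale), colored as lower (blue), higher (red) or not past the threshold (grey), with black lines at the median of all tested genes in each length class. The median of all genes falls from 0.11 up to 2000 nucleotides to −0.14 over 8000, and the members' median is below it in each class.

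The partners of these enzymes were examined through 11 lists of other chromatin genes. Of their 126 tested genes, 27 (21.4%) were lower and 11 (8.73%) higher, beside 15.0% and 16.5% of all genes tested, with a median log2 fold change of −0.08. Without WH9 9 were lower and 4 higher, and without WH10 13 and 4. In the shorter lists 1 or 2 calls are a share near that of all genes. The partners of the NuRD complex did not fall with *Chd3*, *Chd4* and *Hdac1*. Of 9 genes, 3 were higher (1 by DESeq2) and none lower, and the log2 fold change of *Mbd2*, the methyl-CpG binding subunit, was 0.39 (adjusted p = 0.00648). Among 15 BAF and PBAF partners, 1 was lower, the PBAF subunit *Pbrm1* (log2 fold change −0.41, adjusted p = 0.00459), and 1 was higher, which DESeq2 did not call. Of 11 COMPASS partners, the subunits shared by the Kmt2 and Setd1 enzymes and their adaptors, 2 were lower (1 by DESeq2), with the chromatin reader *Psip1* at −0.37 (adjusted p = 0.00767).

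Of 17 HDAC corepressor partners, 2 were lower and 2 higher, and *Ncor1*, which activates Hdac3, was at −0.61 (adjusted p = 0.000618). Of the 9 class IIa partners tested, 2 were higher and 1 lower, and *Srf*, a muscle transcription factor, was at 1.21 (adjusted p = 2.74e-05). The ISWI partners had a median of −0.50, with 5 of 9 lower, among them *Baz1b* at −0.92 (adjusted p = 0.000221). The opposing acetyltransferases had 4 of 13 lower and none higher, and *Crebbp* was at −0.66 (adjusted p = 0.00096).

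Other histone methyltransferases had 6 of 15 lower (2 by DESeq2) and 1 higher, the muscle-specific *Smyd1* at 0.56 (adjusted p = 0.00143). The DNA methylation genes had 3 of 8 lower and none higher, with the maintenance factor *Uhrf1* at −0.50 (adjusted p = 0.00565). The INO80 and SRCAP list had 2 of 16 lower (*Trrap*, −0.53, adjusted p = 0.00188) and 2 higher, and neither DESeq2 nor the offset for GC content and length called any of them higher, and HP1 and KAP1 had 1 of 4 lower (*Cbx1*, −0.48, adjusted p = 0.00512).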

How the data were processed

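RNA-seq counts of 4 mouse P7 heart libraries were used, grouped by the genotype in the labels. After discarding reads of low quality, the authors used TopHat2 with mm10, counted reads on known genes and deposited raw counts per Entrez gene; bcl2fastq and edgeR are also named in the submitters' processing notes. Gene models, strandedness and the treatment of multi-mapping reads are not given in the sources used here, so overlapping genes, antisense genes and near-identical copies are uncertain. Gene IDs were matched to symbols through RefSeq GRCm38.p6 and GENCODE M21 (24381 of 24454). Transcript lengths, GC content and 3′UTRs came from GENCODE M21 on GRCm38, using the longest coding transcript for length.

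Counts were tested with edgeR 4.0.16 in R 4.3.3 (filterByExpr, TMM factors, quasi-likelihood F-test, group as the only term), with Benjamini-Hochberg adjustment over 14266 genes and a threshold of 0.05. Standard errors were obtained from the fold change and F (absolute log2 value over root F). Normalized counts are TMM-scaled to the mean effective library size. The biological coefficient of variation was 8.78%. The floor of 3 counts corresponds to 0.209 to 0.371 CPM, and floors cover counting error only, since PCR reads without molecular identifiers are not independent molecules. On simulated data for this comparison with 200 changed genes among 14266, the test recovered 85.0% of genes changed by 1 and 97.0% of those changed by 2 on the log2 scale. Smaller changes, as in every called member except *Brd8dc*, were not simulated, so these figures do not apply to them.

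Alternatives were DESeq2 1.42.0, other size factors, no filter, an offset for GC content and length, autosomal genes alone and leaving out each library. A fit without 1 library assumes that the lone library of its group varies like the other group.

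Named genes were, in each family, up to 2 higher and 2 lower called members with the largest log2 fold change and non-overlapping groups, members with a known role in the heart or at the core of a complex, members not tested, and the smallest p in each other list. Further members were named after their values were seen, to complete paralog pairs and complexes. The families, members and lists were chosen with earlier results of these data known. No set test was run. RefSeq sequences were not printed for genes on chromosome 18. The values of 1 member are not reported here.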

Additional observations from a re-analysis of the deposited data

Results flagged for a closer look

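*Kdm5d*, a Y-linked H3 lysine 4 demethylase outside the autosomal rule, had 4 counts in WH7 and 0 in WH8 (Ctrl) but 312 in WH9 and 331 in WH10 (miR-128OE). It drew attention as a family member that is present in the data but enters no comparison of the report, with counts above those of the control libraries. Sex and condition coincide and cannot be told apart.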

How the results depend on the processing

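DESeq2's size factors and a fit on autosomal genes alone left all counts of the families within 1.5 times. Scaling by total counts shifted the median of all genes to −0.11 and gave medians of −0.37 for the members, −0.38 (*Setd*), −0.20 (*Kdm*), −0.50 (*Chd*), −0.25 (*Smarc*), −0.47 (*Arid*), −0.53 (*Brd*), −0.40 (*Hdac*) and −0.18 (other lists), with 1 higher and 5 lower *Setd*, 6 lower *Smarc* and 6 higher genes in the other lists. Upper-quartile factors gave −0.32 for the members, −0.33 for *Setd* with 1 higher, and −0.12 for the other lists. Without the filter, 1 *Kmt* and 1 *Smarc* gene were higher and 5 *Setd* genes lower. DESeq2 called 3 *Kmt* lower, 1 *Setd* higher and 6 genes of the other lists higher, and 27 members lower and 3 higher in all (9.88% and 12.0% of all genes). With the offset, the members' median was −0.23 and that of *Setd* −0.23. The cause of these differences was not tested.

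When each library was left out in turn, the members had 1 to 7 higher and 12 to 45 lower genes, with medians of −0.32 to −0.19. Ranges of higher and lower genes were 0 to 1 and 3 to 7 (*Kmt*), 1 to 2 and 0 to 5 (*Setd*), 0 to 2 and 0 to 4 (*Kdm*), 0 to 1 and 0 to 5 (*Smarc*), 0 to 1 and 2 to 6 (*Arid*), and 4 to 16 and 9 to 37 (other lists). Lower genes ranged from 3 to 9 (*Chd*), 3 to 5 (*Brd*) and 1 to 5 (*Hdac*). Medians ranged from −0.46 to −0.23 (*Kmt*), −0.32 to −0.16 (*Setd*), −0.47 to −0.36 (*Chd*), −0.43 to −0.16 (*Hdac*), −0.20 to 0.019 (*Kdm*) and −0.12 to 0.0011 (other lists), the last 2 reversing without WH8. *Hdac2* (−0.038 to 0.010), *Hdac3* (−0.074 to 0.050) and *Kdm5b* (−0.19 to 0.029), none of them called, changed sign, as did *Chd5* (−0.34 to 0.71), *Smarcb1* (−0.17 to 0.15), *Smarca5* (−0.016 to 0.23) and *Kdm4a* (−0.0029 to 0.17), 11 members in all and 0 of them called. No paired analysis was possible because the labels give the libraries no shared replicate numbers. With 2 libraries per group and totals of 8096870 to 14359838 counts, small differences and genes at the floor were not resolved.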

Other observations

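Outside the members, 6 protein-coding genes with matching symbols lie on the sex chromosomes, *Kdm5d* among them. *Kdm6a*, the X-linked H3 lysine 27 demethylase and relative of *Kdm6b*, had 554 and 585 normalized counts in Ctrl libraries against 283 and 288 in miR-128OE libraries (log2 fold change −0.99, adjusted p = 0.000209), opposite in sign to *Kdm6b*. *Kdm5c*, the X-linked relative of *Kdm5a*, had 1211 and 1214 against 833 and 815 (log2 fold change −0.56, adjusted p = 0.000986). Both are known to escape X inactivation in mice, and sex coincides with the groups. The log2 fold change of *Hdac6*, a cytoplasmic tubulin deacetylase, was −0.31 (adjusted p = 0.0342), that of *Hdac8* 0.23 (adjusted p = 0.446) and that of *Smarca1* −0.14 (adjusted p = 0.603).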
